A study of Mus musculus with 503 samples.

Results

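Chemokine genes, 10 in all, were followed in single perivascular cells of the mouse spinal cord: *Ccl2*, *Ccl7*, *Ccl8*, *Ccl11*, *Ccl19*, *Cxcl1*, *Cxcl5*, *Cxcl10*, *Cxcl12* and *Cx3cl1*. They were chosen by symbol, and all 10 are among the 56701 gene rows of the count table. The 503 cells came from adult *GLAST-CreERT2;R26R-tdTomato;Pdgfrb-eGFP* mice, labelled female throughout although the study also describes both sexes for its sequencing, so every group carried the same 3 alleles: a tamoxifen-inducible Cre under the glutamate transporter gene GLAST, tdTomato that Cre switches on, and EGFP under *Pdgfrb*, a gene of mural cells and perivascular fibroblasts. All cells were sorted as EGFP+, with or without tdTomato (tdTomato+ and tdTomato- cells below), from uninjured cord or 3 days after a complete crush injury (SCI), with the outer meninges taken off. They were profiled by Smart-seq3, a full-length single-cell RNA-seq method. Uninjured cells lay on plates 209 (77 tdTomato+ and 53 tdTomato-) and 213 (81 and 65), and injured cells on plates 211 (88 and 58) and 215 (34 and 47). A tdTomato- cell may lack GLAST activity or may have escaped recombination, and these cannot be told apart.

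Chemokines are small secreted proteins that draw leukocytes along gradients through G protein-coupled receptors. *Ccl2*, *Ccl7* and *Ccl8* encode ligands of CCR2, the receptor of inflammatory monocytes (mouse CCL8 also uses CCR8). *Ccl11* (eotaxin) encodes a ligand of CCR3 on eosinophils, and *Ccl19* a ligand of CCR7 on dendritic and T cells. *Cxcl1* and *Cxcl5* encode ligands of CXCR2 on neutrophils, and *Cxcl10*, an interferon-responsive gene, a ligand of CXCR3 on activated T cells. *Cxcl12* encodes a homeostatic ligand of CXCR4 that is scavenged by ACKR3, and *Cx3cl1* encodes fractalkine, a membrane-bound ligand of CX3CR1 on microglia that is released by sheddases.

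4 of the genes lie close together in the RefSeq annotation of GRCm38.p6, with other genes between *Ccl11* and *Ccl8*. *Ccl2* (chromosome 11, 82035577 to 82037452) was followed by *Ccl7* (82045712 to 82047525) and *Ccl11* (82057832 to 82062955), and *Ccl8* (82115185 to 82116799) closed a stretch of 81.2 kb. *Cxcl5*, *Cxcl1* and *Cxcl10* lie on chromosome 5, *Cxcl12* on chromosome 6, *Ccl19* on chromosome 4 and *Cx3cl1* on chromosome 8. The RefSeq promoter table held 6 of the 10 genes (*Ccl8*, *Ccl19*, *Cxcl1*, *Cxcl10*, *Cxcl12* and *Cx3cl1*). The 250 bases before the start of *Cxcl1* and *Cxcl10*, which were higher after injury, and of *Cxcl12*, which was lower, are printed 5′ to 3′ on the strand of the gene. Capitals mark matches on either strand to a strict NF-kB motif (GGGA, any 2 bases, TTCC) or to the interferon-stimulated response element, ISRE (GAAA, any 2 bases, GAAA).
Cxcl1, chr5:90890995-90891244, + strand: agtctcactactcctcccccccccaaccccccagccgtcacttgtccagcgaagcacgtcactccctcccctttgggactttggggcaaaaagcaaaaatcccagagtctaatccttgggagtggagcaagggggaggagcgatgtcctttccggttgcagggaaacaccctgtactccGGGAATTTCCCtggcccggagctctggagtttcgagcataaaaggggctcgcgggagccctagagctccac
Cxcl10, chr5:92348890-92349139, - strand: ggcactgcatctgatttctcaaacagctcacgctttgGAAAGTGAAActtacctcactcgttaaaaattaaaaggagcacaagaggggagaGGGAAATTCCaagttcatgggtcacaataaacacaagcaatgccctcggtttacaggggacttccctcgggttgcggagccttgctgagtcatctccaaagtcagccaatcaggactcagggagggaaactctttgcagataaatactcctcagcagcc
Cxcl12, chr6:117168285-117168534, + strand: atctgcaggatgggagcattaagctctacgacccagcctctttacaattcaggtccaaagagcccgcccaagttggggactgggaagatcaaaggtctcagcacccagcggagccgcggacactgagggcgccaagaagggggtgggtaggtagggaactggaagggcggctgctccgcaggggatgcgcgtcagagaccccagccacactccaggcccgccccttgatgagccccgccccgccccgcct

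The strict NF-kB motif matched the window of *Cxcl1* at bases -71 to -61 before the start, as 2 overlapping matches on opposite strands, and that of *Cxcl10* at -159 to -150, against 1.21% of the 32851 windows in the table. The ISRE motif matched *Cxcl10* at -213 to -204 and *Ccl19* at -208 to -199, against 2.98% of windows. The AP-1 motif TGANTCA (6.75% of windows) matched *Cxcl10*, and TATAAA (12.4% of windows) matched *Ccl8* and *Cx3cl1*. A looser NF-kB form (GGG, any 5 bases, CC) overlaps the strict one and was in 45.8% of windows; it matched *Ccl19*, *Cxcl1*, *Cxcl10* and *Cxcl12*. The printed window of *Cxcl12* held no match to the strict NF-kB, ISRE, AP-1 or TATA letters. These matches describe the sequence and are no measure of binding.

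After filtering, 468 cells remained: 65 tdTomato+ and 46 tdTomato- cells on plate 209, 72 and 60 on plate 213, 88 and 58 on plate 211, and 34 and 45 on plate 215, with 25645409 to 38406035 counts per group. Levels are given in CPM, counts per 1e6 counts, of the summed cells of a group. No label names an animal, so each group was 1 sample: no test was possible, and the differences have no replicate behind them. The spread is given over plates, for which no label says whether they held different animals, and exact Poisson intervals cover counting error only. Both sorts lay on every plate, but no plate held both uninjured and injured cells, so injury and plate cannot be told apart. The 34 injured tdTomato+ cells of plate 215 were shallow (median 14770 counts), and plate 211 held 94.6% of the counts of that group. A gene was taken as past 2-fold where log2(CPM + 1) differed by 1 or more, in the same direction on both plates (sort) or in all 4 plate pairs (injury), with 10 CPM or more in the higher group. The same rule over all genes gives the background percentages below.

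Markers of the sorted types differed between the groups, and these values stand beside every result that follows. The summed level of 9 pericyte genes was 11104 and 12234 CPM in the uninjured sorts (tdTomato+ and tdTomato-) and 730.0 and 11318 CPM in the injured ones. The 8 perivascular fibroblast genes summed to 4214, 2205, 21865 and 9659 CPM in the same order. The 7 stromal fibroblast genes (such as *Postn* and *Tnc*) summed to 786, 850, 3405 and 3037 CPM. The 6 cycling genes summed to 12.9, 7.03, 1216 and 674 CPM, and the 6 vascular smooth muscle genes to 934, 2992, 1360 and 2602 CPM. The 8 endothelial genes, which the sort should exclude, summed to 6092, 6539, 427 and 2136 CPM, with no gene of the list at 0 in any group. Only 1 to 6 of 12 microglia and macrophage genes reached 10 CPM in a group, with sums of 21.7 to 126.9 CPM, and no neutrophil or lymphocyte gene did. The 6 astrocyte genes summed to 183, 328, 56.3 and 14.8 CPM in the order above. The 6 oligodendroglia genes summed to 37.9, 71.3, 4.30 and 5.34 CPM. Their part in the chemokine levels was not tested, and in summed cells fewer cells of a type and less RNA per cell cannot be told apart.

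After SCI, 6 of the 10 genes were higher past 2-fold in tdTomato+ cells (*Ccl2*, *Ccl7*, *Ccl11*, *Cxcl1*, *Cxcl5* and *Cxcl10*) and 2 were lower (*Cxcl12* and *Cx3cl1*), of 8 that reached 10 CPM. The background was 10.8% of 11429 genes higher and 34.3% lower. In tdTomato- cells 5 were higher (*Ccl2*, *Ccl7*, *Ccl11*, *Cxcl1* and *Cxcl10*) and *Cxcl12* was lower, of 7 that reached 10 CPM, against 9.52% of 11434 genes higher and 17% lower. *Ccl8* and *Ccl19* stayed under 10 CPM in every group. The median difference of all genes at 10 CPM was -0.59 (log2) in tdTomato+ and -0.20 in tdTomato- cells, a shift toward lower values after injury. The median over all 10 chemokines was 2.86 and 2.57.

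**Figure D1:**
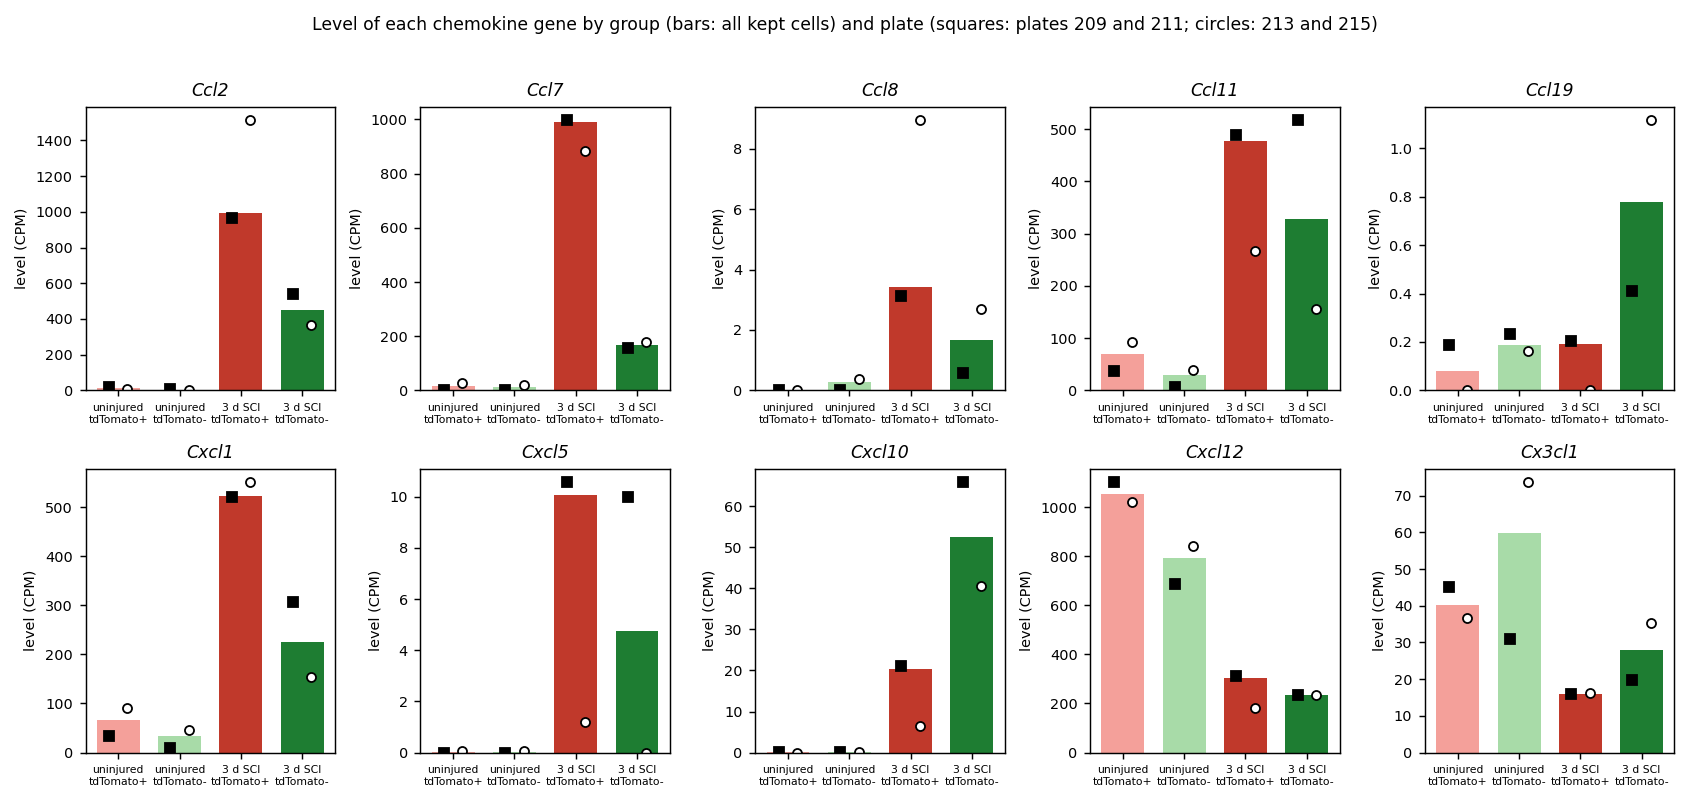
Level of each gene in CPM (vertical axes, linear, a scale of its own per gene) in the 4 groups. Bars are the summed kept cells of a group, squares are plates 209 and 211 and circles plates 213 and 215. *Ccl2* stood at 966 and 1513 CPM on the injured plates of tdTomato+ cells, against 17.2 and 8.24 on the uninjured ones, and *Cxcl12* showed the opposite order.

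*Ccl2* was at 12 CPM in uninjured tdTomato+ cells (17.2 on plate 209 and 8.24 on plate 213) and at 996 CPM in injured ones (966 on plate 211 and 1513 on plate 215). In tdTomato- cells it was at 2.90 CPM uninjured (6.25 and 1.32) and 449.9 CPM injured (541 and 367). No uninjured plate overlapped an injured one in either sort. The levels were 83.1-fold and 155.1-fold higher after injury, differences of 6.26 (plate pairs 5.73 to 7.36) and 6.85 (5.66 to 7.87) on the log2(CPM + 1) scale. The 155.1-fold value rests on 78 uninjured counts, and the order of the sorts depends on the measure. The mean of the single cells went from 13.1 to 1258 CPM in tdTomato+ and from 12.4 to 510 CPM in tdTomato- cells. After each cell was thinned to 20000 counts, *Ccl2* was found in 9 uninjured tdTomato+ cells (7.09%, exact binomial 95% interval 3.29 to 13) and in 84 of 100 injured ones (84%, 75.3 to 90.6). In tdTomato- cells the counts were 4 of 92 (4.35%, 1.20 to 10.8) and 46 (45.1%, 35.2 to 55.3). The median injured tdTomato+ cell of 20000 or more counts held 417 CPM and the highest 7010 CPM, and the median injured tdTomato- cell held 14.4 CPM and the highest 9681 CPM. Most injured tdTomato+ cells thus held *Ccl2*, whereas the tdTomato- level came from fewer cells.

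*Ccl7*, the second CCR2 ligand, was at 15.6 CPM in uninjured tdTomato+ (0.622 and 26.4 on plates 209 and 213) and 991 CPM in injured cells (997 on plate 211 and 885 on plate 215). In tdTomato- cells it was at 14.2 CPM uninjured (1.39 and 20.2) and 168 CPM injured (156.95 and 179). The uninjured tdTomato- level rested on 1 cell, which held 94.5% of the counts and left 0.800 CPM without it. The injury difference was 5.90 (5.01 to 9.27) in tdTomato+ and 3.48 (2.90 to 6.23) in tdTomato- cells. Thinned cells with a count were 6.30% uninjured and 80% injured in the tdTomato+ sort, and 1.09% and 35.3% in the tdTomato- sort. *Ccl8*, the third CCR2 ligand, had 0 counts in uninjured tdTomato+ cells, which allows up to 0.0781 CPM (3 counts; exact Poisson upper limit 0.096). In injured tdTomato+ cells *Ccl8* was at 3.44 CPM, 44-fold the level of 3 counts, and at 2.05 CPM without the highest cell. It was at 0.260 and 1.68 CPM in uninjured and injured tdTomato- cells, and 41.1% and 46.5% of the injured counts lay in 1 cell of each sort.

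*Ccl11* was at 69.1 CPM in uninjured tdTomato+ cells (36.8 and 92.4) and 477 CPM in injured ones (489 on plate 211 and 267 on plate 215). In tdTomato- cells it was at 29 CPM uninjured (7.29 and 39.2) and 327 CPM injured (517 and 155.01). All injured plates exceeded all uninjured ones, with differences of 2.77 (1.52 to 3.70) and 3.45 (1.96 to 5.96). *Ccl19* had 3 and 5 counts in the uninjured sorts (tdTomato+ and tdTomato-) and 6 and 20 in the injured ones, 0.0781 to 0.780 CPM, too few to order the groups.

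*Cxcl1*, the main neutrophil attractant of the set, was at 66.4 CPM in uninjured tdTomato+ cells (32.9 and 90.6) and 523 CPM in injured ones (522 and 550.3 on plates 211 and 215). In tdTomato- cells it was at 34.7 CPM uninjured (8.92 and 46.8) and 226 CPM injured (306 and 153.7). The differences were 2.96 (2.51 to 4.02) and 2.67 (1.69 to 4.95), and no injured plate overlapped an uninjured one. *Cxcl5*, the other CXCR2 ligand, had 1 count in each uninjured group, 313 counts (10.1 CPM) in injured tdTomato+ and 4.76 CPM in injured tdTomato- cells. A single cell held 69.97% and 99.2% of those injured counts, and without it the levels were 3.05 and 0.0397 CPM, so the place of *Cxcl5* among the 6 genes rests on 1 cell.

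*Cxcl10* had 1 count in uninjured tdTomato+ and 3 counts in uninjured tdTomato- cells. After injury it was at 20.3 CPM in tdTomato+ (21 on plate 211 and 6.56 on plate 215) and at 52.6 CPM in tdTomato- cells (65.8 and 40.7). Its injury differences were 4.37 (2.83 to 4.46) and 5.59 (5.22 to 5.91). The gene was on in few cells: thinned cells with a count were 0 (which allows a share of up to 2.36%) uninjured and 6% injured in the tdTomato+ sort, and 1.09% and 12.7% in the tdTomato- sort, and the highest injured cell held 48.8% and 53.3% of the counts. Without those cells the injured levels were 10.5 and 24.8 CPM.

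**Figure D2:**
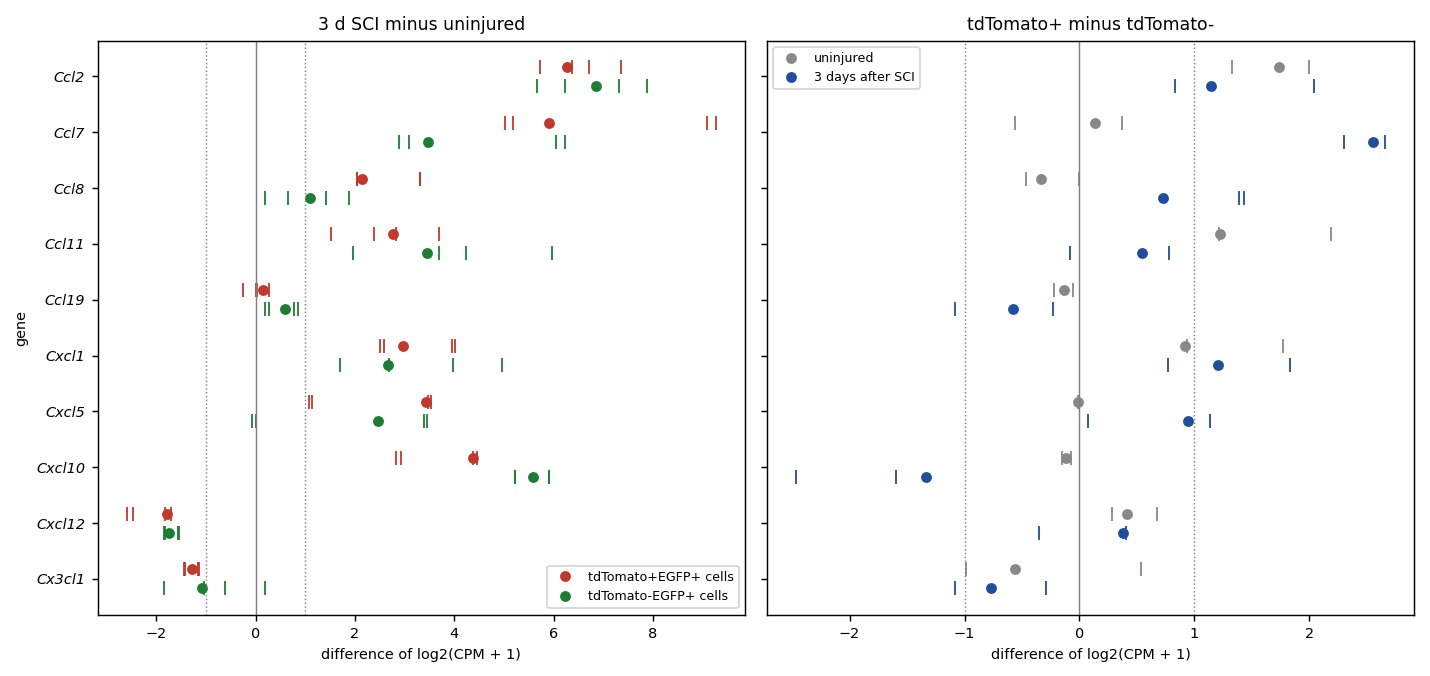
Difference of log2(CPM + 1) for each gene (rows), 3 days after SCI minus uninjured at left (red, tdTomato+; green, tdTomato-) and tdTomato+ minus tdTomato- at right (grey, uninjured; blue, injured). Dots are group sums, ticks are the 4 plate pairs or the 2 plates, and dotted lines mark 2-fold. *Ccl2* lay at 6.26 and 6.85 for injury and *Cxcl12* at -1.79 and -1.75.

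*Cxcl12* was at 1054 CPM in uninjured tdTomato+ cells (1100.3 on plate 209 and 1020.2 on plate 213) and 304 CPM in injured ones (311 on plate 211 and 182 on plate 215). In tdTomato- cells it was at 791 CPM uninjured (688 and 839.7) and 234 CPM injured (235 and 233). The differences were -1.79 (-2.59 to -1.71) and -1.75 (-1.85 to -1.55). With DESeq2 size factors, under which the median of all genes was 0.20 and 0.03 in the tdTomato+ and tdTomato- sorts, the tdTomato+ difference was -0.98 and no longer past 2-fold, and that in tdTomato- cells was -1.51. Thinned cells with a count were 95.3% uninjured and 73% injured in the tdTomato+ sort, and 76.1% and 45.1% in the tdTomato- sort. *Cx3cl1* was at 40.2 CPM in uninjured tdTomato+ (45.2 and 36.6) and 15.9 CPM in injured cells (15.9 and 16.1), a difference of -1.29 (-1.45 to -1.14) that was -0.64 with TMM and -0.50 with DESeq2 factors, under 2-fold in both. In tdTomato- cells *Cx3cl1* was at 59.9 CPM uninjured (30.9 and 73.6) and 27.9 CPM injured (19.7 and 35.3), and 1 of the 4 plate pairs had the opposite sign.

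Endothelial cells are also known to make *Cxcl12*. Its level was split by the summed CPM of the 8 endothelial genes in each cell, a split chosen after seeing the data. In uninjured tdTomato+ cells *Cxcl12* was at 890.3 CPM (871.5 to 909.4) in the 29 cells under 500 endothelial CPM, 612 CPM (584 to 641) in 18 cells between 500 and 5000, and 1165 CPM (1152 to 1178) in 90 cells above. In uninjured tdTomato- cells it was at 60.6 CPM (53.3 to 68.5) in 22 cells, 513 CPM (489.7 to 537) in 16 and 1001.5 CPM (987 to 1016) in 68. After injury all but 4 tdTomato+ cells, and 68 tdTomato- cells, were under 500 endothelial CPM, with *Cxcl12* at 278 CPM (272 to 284) and 134.04 CPM (128.6 to 139.7). The other injured tdTomato- cells were lower than uninjured ones of the same range, at 260.2 CPM (245.8 to 275) in 18 cells between 500 and 5000 and 623 CPM (599 to 648) in 17 cells above. Of the 4 other injured tdTomato+ cells, 2 between 500 and 5000 had 0 counts and 2 above were at 1567 CPM, too few to compare. Among cells under 500 endothelial CPM the injury difference of *Cxcl12* was -1.68 in tdTomato+ cells and 1.13, the opposite direction, in tdTomato- cells. The cells compared lay in different clusters, formed without the 10 chemokines: 13 of the 22 uninjured tdTomato- cells were in cluster 6, like vascular smooth muscle cells (vSMCs), and 39 of the 68 injured ones in the pericyte-like cluster 5, while 25 of the 29 uninjured tdTomato+ cells were in the perivascular fibroblast-like cluster 4 and most injured ones (97 cells) in cluster 1. Injury and cluster cannot be told apart in these values. In the same cells *Cx3cl1* was at 51.3 CPM uninjured and 15.6 CPM injured in the tdTomato+ sort, and at 1.20 and 29.9 CPM in the tdTomato- sort. *Ccl2*, by contrast, was higher after injury in these cells of both sorts, at 35.2 and 1018 CPM in tdTomato+ and at 5.27 and 569 CPM in tdTomato- cells.

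**Figure D3:**
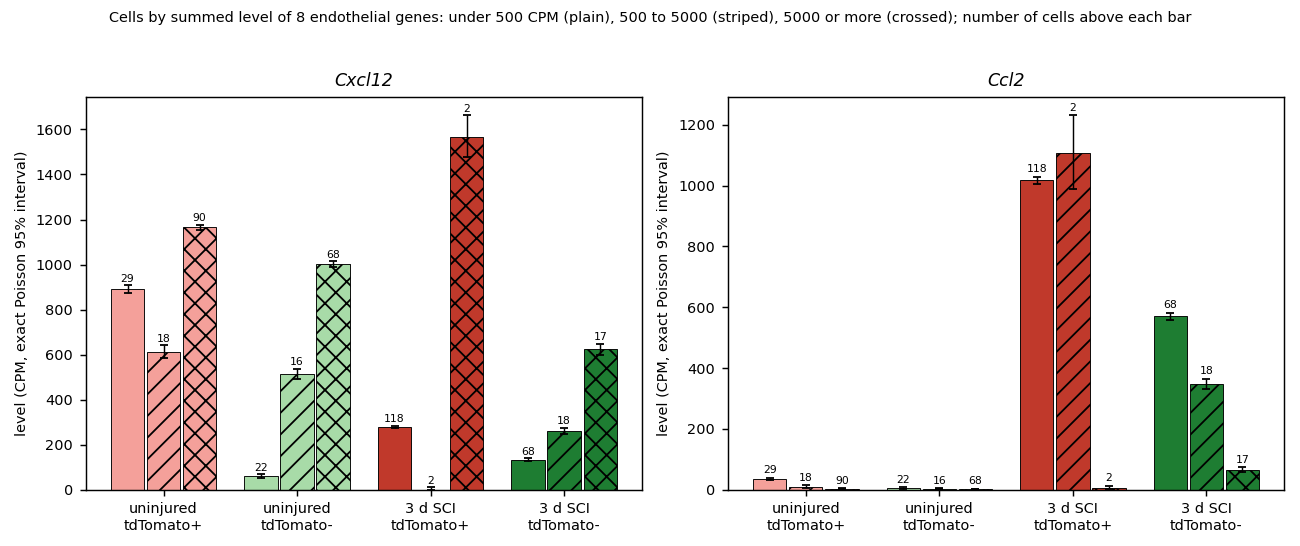
*Cxcl12* and *Ccl2* in CPM (vertical axes) in the 4 groups, with cells split by the summed level of 8 endothelial genes: under 500 CPM (plain), 500 to 5000 (striped) and 5000 or more (crossed). Error bars are exact Poisson 95% intervals and the number of cells stands above each bar. Plain bars of *Cxcl12* stand at 890.3, 60.6, 278 and 134.04 CPM, so the uninjured tdTomato- level lay mainly in cells with endothelial transcripts.

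The sorts differed for few of the genes in uninjured cord. *Ccl2* (12 against 2.90 CPM, difference 1.73, with 1.32 on plate 209 and 2.00 on plate 213) and *Ccl11* (69.1 against 29 CPM, 1.23, 2.19 and 1.21) were higher past 2-fold in tdTomato+ cells, of 6 genes at 10 CPM, against 4.31% of 11198 genes. None was lower past 2-fold, against 3.61%. The *Ccl2* difference leaned on 1 tdTomato+ cell with 71.01% of the counts of plate 209. Without the highest cell of each sort that plate stood at 5.09 and 4.69 CPM, and the mean of the single cells over both plates was 13.1 CPM in tdTomato+ and 12.4 CPM in tdTomato- cells. A *Ccl2* count was found in 18.98% of tdTomato+ and 27.4% of tdTomato- cells before thinning. *Cxcl1* (0.92) and *Cxcl12* (0.41) were also higher in the tdTomato+ sort on both plates but under 2-fold. *Ccl7* and *Cx3cl1* had opposite signs on the 2 plates.

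After SCI, *Ccl2*, *Ccl7* and *Cxcl1* were higher past 2-fold in tdTomato+ than in tdTomato- cells, of 8 genes at 10 CPM, against 4.31% of 10631 genes. *Ccl7* showed the widest gap, 991 against 168 CPM (5.89-fold), a difference of 2.55 with 2.66 on plate 211 and 2.30 on plate 215. *Ccl2* differed by 1.14 (0.83 on plate 211 and 2.04 on plate 215) and *Cxcl1* by 1.21 (0.77 and 1.83). Without plate 215, *Ccl2* and *Cxcl1* were under 2-fold, and *Ccl7* was past it. *Cxcl10* was lower in the tdTomato+ sort (-1.33, -1.60 and -2.46), against 17.9% of genes lower. On plate 211 a single tdTomato- cell held 89.7% of the *Cxcl10* counts, and without the highest cell of each sort the plate stood at 10.7 CPM in tdTomato+ and 6.91 CPM in tdTomato- cells, the opposite order. *Ccl11* (0.54) and *Cxcl12* (0.38) had opposite signs on the 2 plates, and *Cx3cl1* was lower on both (-0.77).

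The injury differences of the sorts were compared by subtraction within plate pairs. *Ccl7* (2.42, 1.93 to 3.22) was past 2-fold toward a larger injury difference in tdTomato+ cells, against 4.57% of 12081 genes, and *Cxcl10* (-1.22, -2.39 to -1.45) toward a larger injury difference in tdTomato- cells, against 20.6%. The *Cxcl10* value of the summed groups lay outside the range of its plate pairs, and its pairs with plate 211 rest on the same tdTomato- cell. Without the highest cell of each group the *Ccl7* value was 0.09, under 2-fold. *Ccl2* differed by -0.59 with 2 of 4 pairs of each sign, and *Cxcl12* by -0.03.

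**Figure D4:**
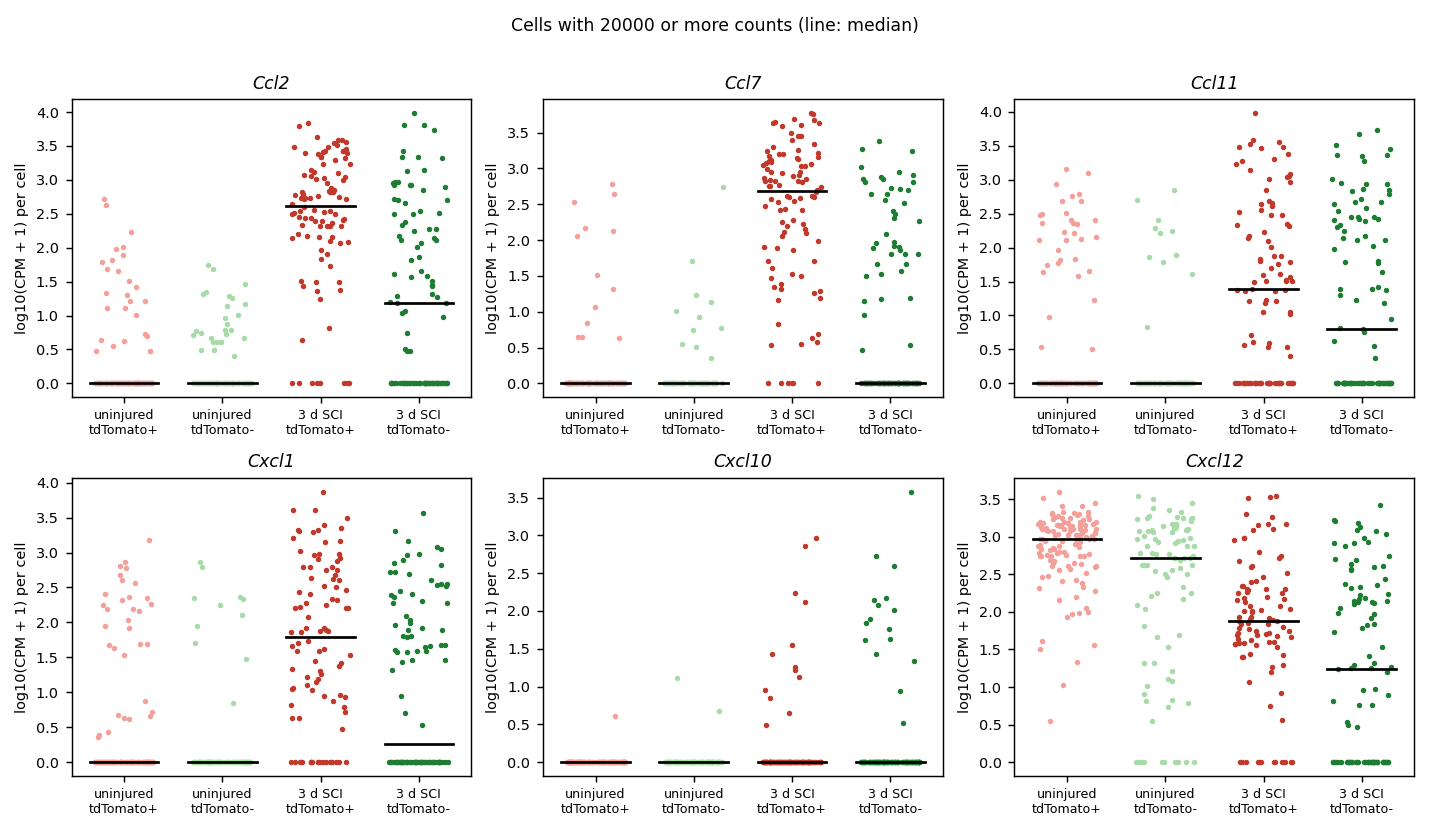
Level per cell, log10(CPM + 1), of 6 genes in the 421 cells of 20000 or more counts, by group. Points are cells and lines medians. In injured tdTomato+ cells the *Ccl2* median stood at 417 CPM, whereas *Cxcl10* was off in most cells of every group.

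Within groups the chemokines were unevenly shared. The top 10% of injured tdTomato+ cells held 52.8% of *Ccl2*, 55.3% of *Ccl7*, 70.9% of *Cxcl1*, 77.4% of *Ccl11* and 99.7% of *Cxcl10* counts. In injured tdTomato- cells the shares were 75%, 71.3%, 73.6%, 74.1% and 97.9%. *Cxcl12* was the most evenly spread in uninjured cells, with 33.2% of counts in the top 10% of tdTomato+ and 45.4% of tdTomato- cells. Of *Ccl2*, *Ccl7*, *Ccl11* and *Cxcl1*, 3 or 4 were detected together in 33 and 27 of 100 thinned injured tdTomato+ cells and in 18 and 11 tdTomato- cells (17.6% and 10.8%). In uninjured cord 1 tdTomato+ cell (0.787%) held 3 of them, no tdTomato- cell of 92 did, and no cell of either sort held all 4.

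The neighbours *Ccl2* and *Ccl7* went together in cells. Of the 84 thinned injured tdTomato+ cells with *Ccl2*, 76 (90.5%) also held *Ccl7*, against 4 of the 16 cells without *Ccl2*. In tdTomato- cells 32 of 46 cells with *Ccl2* and 4 of 56 without it held *Ccl7*. Their Spearman correlation over cells was 0.65 (87 cells, tdTomato+, plate 211), 0.69 (13 cells, tdTomato+, plate 215) and 0.76 (44 cells, tdTomato-, plate 215). It was not computed for the 58 tdTomato- cells of plate 211, since only 27.6% of them held a *Ccl7* count. *Ccl11*, next along the chromosome, followed *Ccl2* less closely, with 0.03, -0.23, 0.18 and 0.28 in tdTomato+ cells of plates 211 and 215 and tdTomato- cells of plates 211 and 215. *Cxcl12* ran the other way, at -0.23, -0.50, -0.29 and -0.26 with *Ccl2*. These values describe cells that share a group and its libraries and come without a test. They pool all clusters of a group, which are set out below and differed in these levels.

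Over all genes, the closest to each chemokine were ranked by the mean of 4 within-plate Pearson correlations over 421 cells, a measure that mixes both sorts and all cell types of a plate. For *Ccl2* they were *Ccl7* (0.51, 0.13 to 0.79 over plates), *Vegfa* (0.37), an angiogenic growth factor, and *Sdc1* (0.36). For *Ccl7* they were *Ccl2*, the Wnt antagonist *Frzb* (0.48) and *9430069I07Rik* (0.46). For *Ccl11* they were *Frzb* (0.35), the collagen gene *Col15a1* (0.35) and *Ctsb* (0.32). For *Cxcl1* they were *Zfp36* (0.34), which encodes an RNA-decay factor, *Nfkbia* (0.32), the NF-kB inhibitor, and *Ier3* (0.27). For *Cxcl12* they were *Pltp* (0.54), *Selenop* (0.52) and *Itm2a* (0.52). For *Cx3cl1* they were *Rfx5* (0.26), *Ppm1h* (0.22) and *B230398E01Rik* (0.22), and those of *Rfx5* and *B230398E01Rik* were below 0 on at least 1 plate.

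Clustering without the 10 genes gave 6 clusters, named only where marker lists allowed. Cluster 4 (71 cells) raised 8 of 8 perivascular fibroblast genes and 4 of 7 stromal fibroblast genes and is called perivascular fibroblast-like. Cluster 5 (48 cells, 47 of them injured tdTomato-) raised 7 of 9 pericyte genes and no endothelial gene and is called pericyte-like. It also raised 3 of 7 stromal fibroblast and 2 of 6 vSMC genes. Its 8 perivascular fibroblast genes, none of them raised, summed to 3653 CPM, against 234 and 380 CPM in clusters 2 and 3. Cluster 6 (18 cells) raised 5 of 6 vSMC genes and is called vSMC-like. Cluster 1 (99 injured tdTomato+, 18 injured tdTomato- and 20 uninjured cells) was led by proliferation genes and stays unnamed. It raised 6 of 6 cycling, 6 of 8 perivascular fibroblast, 4 of 7 stromal fibroblast and 2 of 6 vSMC genes. Clusters 2 (59 and 51 uninjured tdTomato+ and tdTomato- cells, 6 injured) and 3 (78 cells) raised 8 of 9 pericyte genes each but also 8 and 7 of 8 endothelial genes, and stay unnamed. Clusters and groups largely coincided, so cluster and injury cannot be told apart for clusters 1, 2, 5 and 6, or for tdTomato+ cells of cluster 3.

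**Figure D5:**
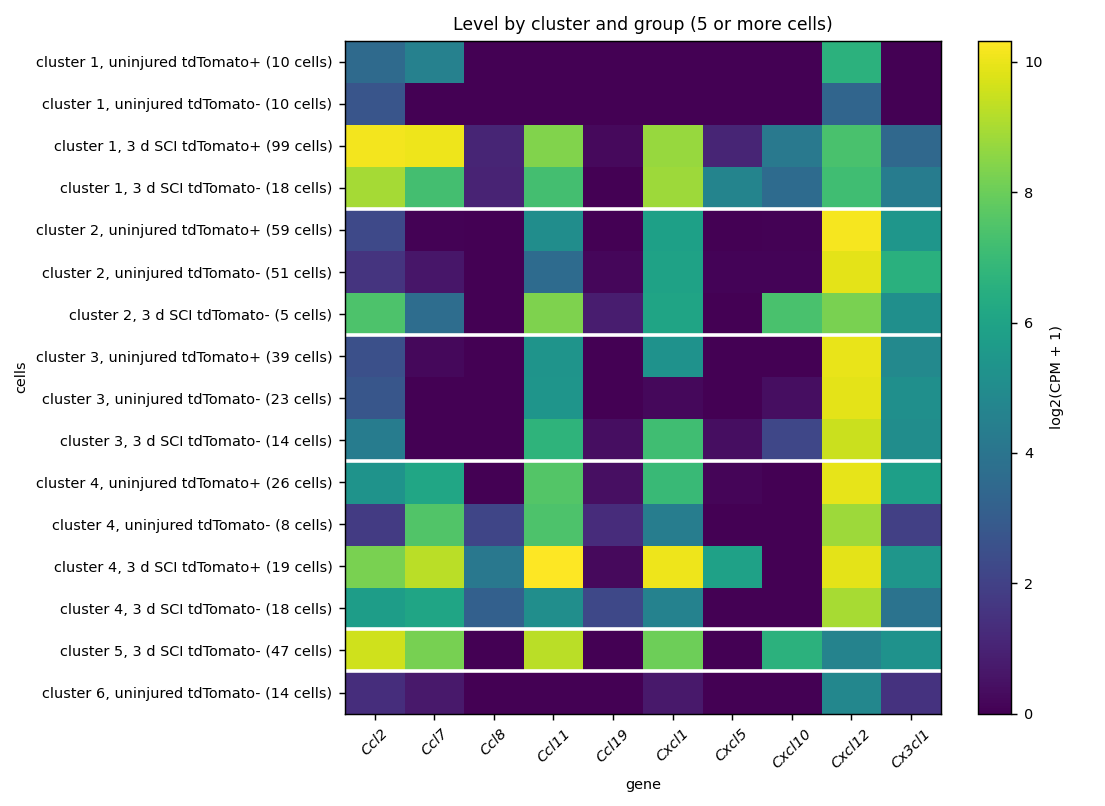
Level, log2(CPM + 1), of each gene (columns) by cluster and group (rows, 5 or more cells each; the number of cells is given). Cluster 1 and cluster 5 of the injured cord are high in *Ccl2*, at 1135 CPM (tdTomato+) and 773 CPM (tdTomato-), and clusters 2 to 4 in *Cxcl12*, at 1158, 1008 and 985 CPM in uninjured tdTomato+ cells.

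In the perivascular fibroblast-like cluster, chemokines of the tdTomato+ sort could be compared within 1 cluster, though its markers also differed with injury. In these tdTomato+ cells the 7 stromal fibroblast genes summed to 850 CPM uninjured and 3232 CPM injured. The 8 perivascular fibroblast genes summed to 17384 and 42598 CPM. From uninjured (26 cells) to injured (19 cells) tdTomato+ cells, *Ccl2* went from 38.3 CPM (34.3 to 42.6) to 306 (290.1 to 322), *Ccl7* from 67.3 to 615, *Ccl11* from 187 to 1281 and *Cxcl1* from 126.99 to 1066. A single injured cell held 37.1% to 56.9% of these 4 genes' counts, and a count was found in 63.2% to 78.9% of injured cells against 26.9% to 38.5% of uninjured ones. *Cxcl12* stood at 985 CPM (965 to 1006) uninjured and 959 (932 to 987) injured, with a count in every cell of both groups, and *Cx3cl1* at 55.2 and 42.5 CPM. The counting intervals of *Cxcl12* overlapped inside this cluster, while the group as a whole was lower. In the tdTomato- cells of the cluster, 8 uninjured and 18 injured, *Cxcl12* was at 444 CPM, 95.6% of it in 1 cell, and 508 CPM, and *Ccl2* at 2.44 and 53.3 CPM, of which 86.4% came from 1 cell.

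Cluster 3, which is unnamed and also carried endothelial genes, held 23 uninjured and 14 injured tdTomato- cells. *Cxcl12* was at 955 CPM (931 to 979) uninjured and 713 (683 to 743) injured, *Ccl2* at 5.77 (4.06 to 7.95) and 19 (14.5 to 24.5), *Ccl11* at 40.4 and 104.9, and *Cx3cl1* at 34.3 and 32.8 CPM. *Cxcl1* had 1 count in the uninjured cells and was at 140.7 CPM in the injured ones, with 47.1% of it in 1 cell, and *Ccl7* had 0 counts in both.

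Cluster 1 held most injured tdTomato+ cells, and there *Ccl2* was at 1135 CPM, *Ccl7* at 1073, *Ccl11* at 331, *Cxcl1* at 428, *Cxcl12* at 165 and *Cx3cl1* at 10.3 CPM. In the 18 injured tdTomato- cells of cluster 1, *Ccl7* was at 151.99 CPM and *Ccl2* at 494 CPM, with 51.3% of *Ccl2* in 1 cell, and *Cxcl12* at 140.8 CPM. The 20 uninjured cells of this cluster held at most 3 counts of *Ccl2* and 2 of *Ccl7* per group. The 10 tdTomato+ ones were shallow, so that 1 count of *Ccl2* was 11 CPM and 2 of *Ccl7* were 21.9 CPM. These counts show no absence, since 3 counts there are 32.9 CPM. Both uninjured sorts had 0 CPM of cycling genes in this cluster. The tdTomato+ cells summed to 13459 CPM of vSMC, 11429 CPM of pericyte, 4903 CPM of endothelial and 4497 CPM of oligodendroglia genes. The tdTomato- cells summed to 11536 CPM of astrocyte genes. In the pericyte-like cells of cluster 5 from injured tdTomato- cells, *Ccl2* was at 773 CPM with a count in 72.3% of 47 cells, *Ccl7* at 292, *Ccl11* at 610.3, *Cxcl1* at 266 and *Cxcl10* at 97.2 CPM, with 66.9% of *Cxcl10* in 1 cell. *Cxcl12* was at 23.5 CPM (20.7 to 26.5) there. In vSMC-like cells (14 uninjured tdTomato-) *Cxcl12* was at 26.3 CPM, *Ccl2* at 1.55 CPM, and *Ccl11* had 0 counts, which allows up to 0.928 CPM.

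*Cxcl10* was absent by count from the perivascular fibroblast-like cluster (0 counts in 71 cells, which allows up to 0.146 CPM) and highest in cluster 5 (111.5 CPM). *Ccl8* was highest in the perivascular fibroblast-like cluster, at 6.05 CPM against 0.325 in all other cells, and 0 counts were found in the 48 cells of cluster 5, which allows up to 0.265 CPM. *Ccl19* was at 1.22 CPM in the perivascular fibroblast-like cluster, and 18 of its 34 counts came from 18 injured tdTomato- cells of that cluster.

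The other genes of the chemokine system were read from lists. Of 28 further ligands, 5 reached 10 CPM in the injury comparison of tdTomato+ cells, and *Cxcl2* (0.104 to 29.8 CPM), a further CXCR2 ligand, and *Ccl9* (2.34 to 10.6) were higher past 2-fold while *Cxcl14* (12.9 to 0.353) and *Cxcl16* (169 to 31.9) were lower. In tdTomato- cells none of the 28 was past 2-fold. *Ccl12*, between *Ccl11* and *Ccl8* on chromosome 11, stayed at 3.89 CPM or less. Of 18 chemokine receptors, only *Ccr9* reached 10 CPM in any group; the receptors of the 10 genes did not. Among 5 atypical receptors, the *Cxcl12* scavenger *Ackr3* was at 252 and 398 CPM in the uninjured sorts (tdTomato+ and tdTomato-) and 58.5 and 323 CPM in the injured ones, and *Ackr4*, a scavenger of CCL19, at 8.90 and 17.9 and at 85.2 and 9.48 CPM in the same order.

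Of 6 genes for enzymes that shed or trim chemokines, *Mmp14* was higher past 2-fold in tdTomato+ cells after injury (46.7 to 149.7 CPM) and *Dpp4*, whose product inactivates CXCL12, lower (35.4 to 2.79). In tdTomato- cells *Mmp14* (23.3 to 165), *Mmp2* (27.2 to 79) and *Mmp9* (0.0372 to 15.6 CPM) were higher and none was lower. The sheddases of fractalkine, *Adam10* and *Adam17*, were under 2-fold in both sorts.

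Of 15 receptors for cytokines that induce chemokines, 2 were higher and 5 lower past 2-fold in tdTomato+ cells after injury, shares near the 10.8% and 34.3% of all genes. *Il1r1* (28.6 to 82.7 CPM) and *Ifngr2* (44.1 to 134.7) were higher, and *Tlr3*, *Ifnar1*, *Ifnar2* and *Tlr4* were among those lower. In tdTomato- cells *Il1r1*, *Ifngr2* and *Tnfrsf1a* (74.5 to 266 CPM) were higher, against 9.52% of all genes, and none was lower, against 17%. These percentages are the background for the other gene lists too. Of 16 NF-kB target genes, 4 were higher and 2 lower in tdTomato+ cells, the higher ones being *Il6* (0.156 to 44.1 CPM), *Ptgs2* (12.4 to 289), *Lif* (1.59 to 19.3) and *Tnfaip2* (10.7 to 43.9). In tdTomato- cells 3 were higher (*Il6*, *Ptgs2* and *Tnfaip2*) and *Tnfaip3* was lower. The median over the 16 was 0.24 and 0.30 in the 2 sorts.

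Genes of the interferon response, to which *Cxcl10* belongs, were read beside it. Of 14, 10 were lower and 0 higher past 2-fold in tdTomato+ cells, against 34.3% of all genes lower, with a median of -1.58 against -0.59 over all genes. In tdTomato- cells 2 of 14 were lower (*Irf9* and *Rsad2*), no larger a share than the 17% of all genes, with a median of -0.47 against -0.20. *Rsad2* went from 134.04 to 16 CPM and *Irf7* from 214.5 to 36.8 CPM in tdTomato+ cells. Of 15 immediate-early genes, which dissociation of tissue can also induce, 9 were lower and *Fosl1* was higher in tdTomato+ cells, and 5 were lower and *Egr2* was higher in tdTomato- cells. Their summed level was 7015, 6468, 3222 and 3735 CPM in the 4 groups, and its part in the chemokine levels was not tested.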

How the data were processed

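Perivascular cells were sorted by FACS with singlet gates from mechanically and enzymatically dissociated cord into 384-well plates and profiled by Smart-seq3, 1 cell per sample. The authors deposited 1 table of counts per gene and cell, which was used as deposited; the labels name the genome build mm10, and the aligner, the counting program and whether the counts are reads or molecules are not given in the sources used here. Of its 1968 cell columns, 1465 belong to no sample of the labels and were not used. The 92 spike-in rows (0.0314% of counts) stayed out of library sizes. The labels give 3 days for the injured cells; the series' design text gives 5 days, and the labels were followed.

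Cells with 200 or more detected genes and at most 20% mitochondrial counts were kept. Cells with *Gfap* or *Ptprc* above 1 on the scale ln(1 + counts per 10000) were then left out (0 cells). So were 34 cells with *Pecam1* both above 1 and above *Pdgfrb* on that scale, which left 468 of 503. Cells with *Pecam1* no higher than *Pdgfrb* stayed in. In kept uninjured cells of 20000 or more counts the *Pecam1* median was 526 CPM (tdTomato+) and 449 CPM (tdTomato-). No doublet caller was run. Counts were summed per group and per plate and given as CPM, with exact Poisson intervals (95%) for sums and exact binomial ones for shares of cells, counting error only. Shares were taken after each cell was thinned to 20000 counts, which left out 10 and 14 uninjured (tdTomato+ and tdTomato-) and 22 and 1 injured cells. Differences are log2(CPM + 1), a scale that understates those of low genes. Cells were clustered with Seurat 5.3.0 in R 4.3.3 (2000 variable genes without the 10 chemokines, 20 principal components, resolution 0.5). Alternative scalings used edgeR 4.0.16 (TMM) and DESeq2 1.42.0 (size factors); neither was used for a test, and no p-value was computed. Other alternatives were a pseudocount of 10 CPM, a minimum of 50 CPM, other cell filters, other cluster settings and leaving out each plate.

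The chemokines and gene lists were chosen with earlier results of these data known. The genes named were the 10 chemokines, listed pathway genes past 2-fold (at most 6 per list and comparison, the largest differences), marker genes, and the 3 genes most like each chemokine found in at least 10% of cells. *Ccl12*, *Adam10* and *Adam17* were named after their values were seen. Promoters were read from RefSeq (GRCm38.p6, the build of mm10).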

Additional observations from a re-analysis of the deposited data

Results flagged for a closer look

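*Cxcl12* was also high in the uninjured cells left out by the filters, which no comparison used. In the 21 such tdTomato+ cells it was at 1313 CPM (1280 to 1346), against 1054 CPM in the cells kept. In the 12 such tdTomato- cells it was at 1446 CPM (1405 to 1487), against 791 CPM in the cells kept, and 30.1% of those counts lay in 1 cell. *Pecam1*, an endothelial gene, was the reason for leaving out 34 of the 35 cells over all groups. *Ccl2* was at 0.636 and 5.41 CPM in the same cells.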

How the results depend on the processing

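Of 22 values past 2-fold, 10 kept their direction in every setting that gave a value and 8 stayed past 2-fold. Of 82 recomputed counts of chemokines past 2-fold, 64 were within 1.5 times the value of the report. For the uninjured sort difference the count of 2 became 1 with DESeq2 factors, a pseudocount of 10 CPM, a minimum of 50 CPM, cells without microglia or macrophage counts, or cells without *Pecam1* or *Cldn5* counts. It became 4 in thinned cells, 0 with an upper limit of 1200 genes and 5 in cells under 500 endothelial CPM. For the difference between injury effects the count of 2 became 1 without the highest cell, 5 without *Pecam1* or *Cldn5* and 6 under 500 endothelial CPM. For the injury difference of tdTomato+ cells the count of 8 became 5 without microglia or macrophage counts, 5 at a minimum of 50 CPM and 4 without *Pecam1* or *Cldn5*. For the sort difference after SCI the count of 4 became 1 without microglia or macrophage counts. Leaving out each plate gave 6 to 8 and 6 to 7 chemokines for injury (tdTomato+ and tdTomato-), 1 to 3 and 2 to 5 for the sorts (uninjured and injured) and 2 to 4 for the difference between injury effects. The lowest of these were without plate 209 (1, uninjured sort) and plate 215 (2, injured sort), and the highest difference between injury effects was without plate 213 (4).

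Some values took the opposite direction, and the cause was not tested. Without microglia or macrophage counts (12 to 62 cells per group), the uninjured sort difference of *Ccl11* was -1.03 and the injured one of *Ccl2* -0.28. With at most 1200 genes (10 to 13 cells per group, none in injured tdTomato-), the injury difference of *Cxcl12* was 1.42 and the uninjured sort difference of *Ccl2* -6.80. Without *Pecam1* or *Cldn5* (4 to 95 cells per group), *Cxcl12* was at 0.19 and 4.42 for injury (tdTomato+ and tdTomato-), *Ccl2* at -1.60 for the uninjured sorts and *Cxcl10* at 4.82 for the injured sorts and for the difference between injury effects. Under 500 endothelial CPM, *Cxcl12* was at 1.13 for injury in tdTomato- cells and *Ccl7* at -1.96 for the difference between injury effects. These last 2 choices of cells were added after seeing the data. For the perivascular fibroblast-like cluster (71 cells), the best match in other cluster settings was set against all other cells. With a clustering resolution of 0.3 the match had *Ccl2* at 2.31, but it held 208 cells and so covers more than that cluster. With no regression the match (67 cells, 66 of them shared) had *Ccl11* at -0.12 and *Cxcl5* at -1.39. No paired analysis was possible because each group was 1 sample and the labels pair no animals.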
